A study of Homo sapiens with 40 samples.

Results

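The genes described here are 34 genes listed as androgen-induced in prostate cells, from the phosphatase gene ACP3 to the metalloreductase gene STEAP4, read as a set beside the better known kallikrein and TMPRSS2 targets. A member was measured where the array's annotation pairs a probe set with that gene alone, and the brightest such probe set stood for it. By that rule 30 of the 34 members were measured, and all 30 passed the filter on low signal, among 11853 genes that passed it in the whole series. STEAP4 and SLC38A4 passed only through the clones of replicate 2: without those arrays their mean log2(signal + 16) was 4.45 and 4.65, under the filter's 4.81. HERC3 and TUBA3D had only probe sets shared with another gene (2 each), and these were not analysed here, nor were SORD and KCNN2. The cells were LNCaP, an established human prostate cancer line that depends on androgen. There were 3 control lines labelled sensitive to MDV3100, namely D+E- (control 1 below), D+R- (control 2) and M+R- (control 3), whose titles the labels leave unexplained, and 7 resistant clones, numbered 1, 9, 10, 14, 15, 19 and 24. Every line was grown in RPMI-1640 medium with 10% FCS for 3 days and then received 10 µM MDV3100 or its solvent, 0.1% DMSO, for 24 h. A resistant line is 1 clone each, and the labels do not give how the clones were selected. Each line and treatment had 2 arrays, numbered replicate 1 and replicate 2, so that each treatment had 6 arrays of control lines and 14 of resistant clones.

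Androgen binds the androgen receptor, which moves to the nucleus, binds DNA at enhancers and promoters and recruits coactivators, so that target genes are transcribed more. MDV3100, also called enzalutamide, competes with androgen for the receptor and keeps it from activating these genes. In luminal prostate cells the receptor's targets serve secretion, lipid and sugar-nucleotide metabolism, ion and amino acid transport, and feedback on other signalling pathways, and a fall of their transcripts is a common readout of receptor block.

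Levels are signal intensities of the array. Differences were taken on log2(signal + 16), so that changes of dim genes are understated. A culture below is 1 line and 1 replicate number, and its response is the MDV3100 value minus the DMSO value. Mean responses are over the 3 control lines or the 7 clones, each line being the mean of its arrays, with the SE of the fit over all genes, and a call is an adjusted p under 0.05 by limma. Profiles did not follow the labels between the replicate sets. In deviations from gene means, 0 of the 20 cultures matched the other replicate of its own label best, and 16 correlated negatively with it (r from -0.73 to 0.10 across genes). Control 2 of replicate 2 was closest to clone 1 of replicate 1 (r = 0.748), control 3 of replicate 2 to clone 15 of replicate 1 (r = 0.634), and clone 1 of replicate 2 to clone 19 of replicate 1 (r = 0.744). Results are therefore also given within each replicate set and without those 3 replicate 2 cultures, control 2, control 3 and clone 1. All 6 luminal prostate markers were present on all arrays, with a lowest signal of 123.8, while 3 of 15 markers of other cell types passed the filter, at mean signals of 16.6 for SYP, 24.3 for VWF and 136.6 for COL1A1. TP63 and CD68, counted in the 15, had no probe set of their own and were not measured. In RNA from whole cultures, fewer cells of a type and less RNA per cell cannot be told apart.

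In the control lines the drug lowered most of the members. Of the 30, 28 had a negative mean response and 18 fell with a call, while 0 rose with a call. By limma 26 had an unadjusted p under 0.05, as had 3110 of all 11853 genes. Over all genes 5.06% fell with a call, and the median response was -0.45 over the members and 0.01 over all genes. By the probe sets used, C1orf116 and PMEPA1 fell furthest, by 1.23 and 0.92. The members with positive mean responses were ACP3 at 0.53 ± 0.19 (adjusted p = 0.0946) and SLC26A2 at 0.11 ± 0.11 (adjusted p = 0.566). In replicate 1 arrays alone 11 members fell with a call (4.1% of all genes), and in replicate 2 arrays alone 0 members did (0.0422% of all genes). In the latter 21 members had an unadjusted p under 0.05, as had 1444 of all 11853 genes. The members' medians were nevertheless close, at -0.46 and -0.48. Without control 2, control 3 and clone 1 of replicate 2, 16 members fell with a call (5.55% of all genes), and 14 of the 18 calls were among them. Leaving out control 1 reduced the 18 calls to 7.

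In the resistant clones the mean responses of the same genes were centred near 0 over both replicate sets, which differed. The median was -0.15 in replicate 1 alone, with 26 of 30 members negative, and 0.054 in replicate 2 alone, with 20 of 30 positive. Over both sets the median response over the members was -0.06, against 2.1e-05 over all genes, and 21 of 30 mean responses were negative. None of the 30 members fell or rose with a call by limma, and 0.464% of all genes fell with a call. Among the members 10 had an unadjusted p under 0.05, as had 1818 of all 11853 genes. In replicate 1 arrays alone C1orf116, SLC38A4 and UAP1 fell with a call (0.861% of all genes). SLC38A4 was near background there and had passed the filter only through the clones of replicate 2, so its call is no independent result. Another fit, called the replicate block below, took the 20 culture responses as units, with line as a block (estimated correlation -0.13). In it NCAPD3 and UAP1 fell with a call (1.23% of all genes). It counts the 2 cultures of a line as separate units, so its precision rests on more units than lines.

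The direct test of the responses, clones minus control lines, was positive for 27 of 30 members, with a median of 0.41 against -0.003 over all genes. Within the sets the median was 0.21 in replicate 1, with 7 members negative, and 0.51 in replicate 2, with 1 negative. PMEPA1, C1orf116, AZGP1, ABHD2 and CREB3L4 were called, all in the direction of a smaller fall in clones, beside 0.304% of all genes. By limma 22 members had an unadjusted p under 0.05, as had 1750 of all 11853 genes. For 14 members every clone's mean response lay above that of every control line, as it did for 2.53% of all genes. Those were STEAP4, PMEPA1, CAMKK2, C1orf116, CENPN, HOMER2, AZGP1, CREB3L4, LRIG1, MPHOSPH9, GNMT, ABHD2, DBI and CDC14B. STEAP4 had passed the filter only through the clones of replicate 2, where it was high, so its place among them is no independent result. For none of the 30 did every clone lie below every control line. The calls were sensitive to single lines and fits. The count of 5 fell to 0 without control 1 or without clone 19, to 1 without control 3 or clone 15, to 2 without clone 24 and to 3 without clone 10. It was 4 without control 2, of which 1 was among the 5. It was 0 within either replicate set, where 11 and 22 members had an unadjusted p under 0.05. Of all 11853 genes, 1874 had such a p in replicate 1. With the replicate block PMEPA1 alone was called (adjusted p = 0.0457). The shares of all genes called with that block or without single lines are not given here. Without the 3 replicate 2 cultures named above, PMEPA1, C1orf116 and HOMER2 were called (0.7% of all genes).

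**Figure D1:**
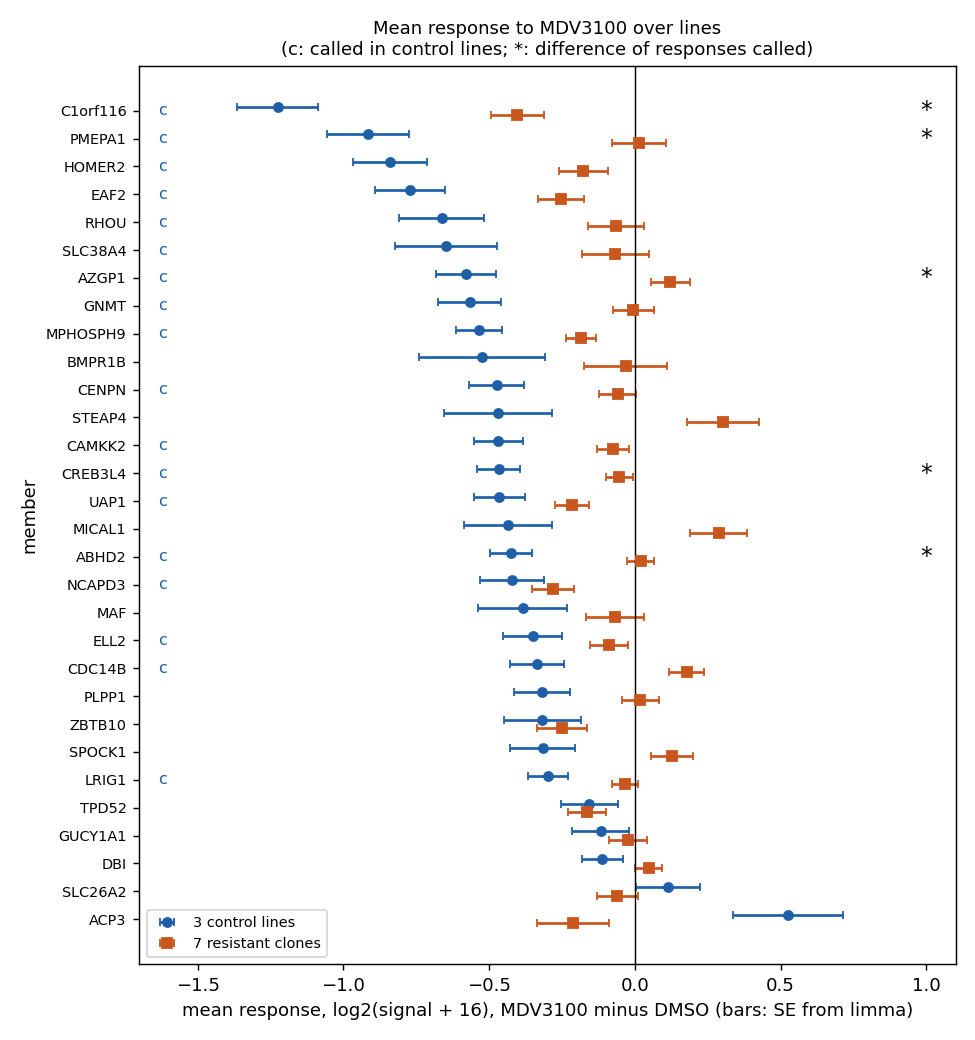
Mean response to MDV3100 (x axis, log2(signal + 16), MDV3100 minus DMSO) of each of the 30 members (y axis), with circles for the 3 control lines, squares for the 7 resistant clones and bars for the SE of the fit. Circles lie left of 0 for 28 members and squares cluster near 0; the letter c marks the 18 calls in control lines and the asterisk the 5 calls in the difference.

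Among the secreted and differentiation genes, 2 of 4 fell with a call in control lines. C1orf116, also known as SARG, is an androgen-regulated gene. Its control signals in DMSO were 1351.5, 1107.9 and 1269.4 in replicate 1 and 1488.1, 1452.9 and 2027.2 in replicate 2, and under MDV3100 they were 482.1, 283.7 and 545.2, then 540, 1276.5 and 890.8. Every control array under the drug was below its DMSO partner, with the least change in control 2 of replicate 2. In the clones its signal in DMSO had a lowest, median and highest value of 1220.1, 1364.1 and 1524.5 in replicate 1 and of 1249.3, 1482.6 and 1776 in replicate 2. Under the drug these were 391.2, 923.4 and 1227.3, then 1262.1, 1523.7 and 1919.6. Clones 9, 10 and 14 of replicate 1 fell as far as control lines, with responses of -1.47, -1.61 and -1.48, while the same labels in replicate 2 stood at 0.11, 0.04 and 0.08. The mean response was -1.23 ± 0.14 in control lines (adjusted p = 3.4e-04) and -0.40 ± 0.09 in clones (adjusted p = 0.0553), a difference of 0.82 ± 0.16 (adjusted p = 0.0379). It was 0.69 in replicate 1 alone and 0.95 in replicate 2 alone (adjusted p = 0.325 and 0.132). Both of its other probe sets had the same signs, with differences of 0.51 and 0.69.

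AZGP1 encodes zinc-alpha-2-glycoprotein, a secreted protein of prostate fluid linked to lipid breakdown. In control lines its DMSO signals were 569.5, 372 and 427.4 in replicate 1 and 865.7, 1763.7 and 2132.9 in replicate 2. With the drug they were 287.4, 148.9 and 403.8, then 526.5, 1683.9 and 1564.1. All 6 control pairs moved down, by 0.07 to 1.23, but the levels of control 2 and control 3 were several times higher in replicate 2. In the clones the median signals in DMSO and with the drug were 1075.5 and 1139.6 in replicate 1 and 1099 and 1372.4 in replicate 2. Within the clones 4 of 7 responses were negative in replicate 1, with a median of -0.22, while 6 of 7 were positive in replicate 2, at 0.32 to 0.58, and clone 1 stood at -0.11. The mean responses of -0.58 ± 0.10 in control lines (adjusted p = 0.00438) and 0.12 ± 0.07 in clones (adjusted p = 0.42) differed by 0.70 ± 0.12 (adjusted p = 0.0284).

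ACP3, which encodes prostatic acid phosphatase, is a classic secreted prostate marker, and its control mean was positive without a call. That direction is opposite to the one the list's name implies. The other probe sets of ACP3 gave control means of 0.53 and 0.41. Its signal rose in 5 of 6 control pairs, for instance from 633.1 to 805.9 in control 1 of replicate 1, from 339 to 633.4 in control 1 of replicate 2 and from 51.8 to 127 in control 3 of replicate 2. Control 2 of replicate 2 was the exception, at 107.4 and 94.7. In clones the responses ranged from -0.54 to 0.57 in replicate 1 and from -1.60 to 0.31 in replicate 2, and the mean of -0.21 ± 0.12 had no call (adjusted p = 0.44). SPOCK1, a secreted proteoglycan gene, was dim in all groups. Its control signals were 13.5 to 66 in DMSO and 4.2 to 62.6 with the drug, and all 6 control pairs fell, with a mean of -0.32 ± 0.11 that missed the threshold (adjusted p = 0.0881).

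**Figure D2:**
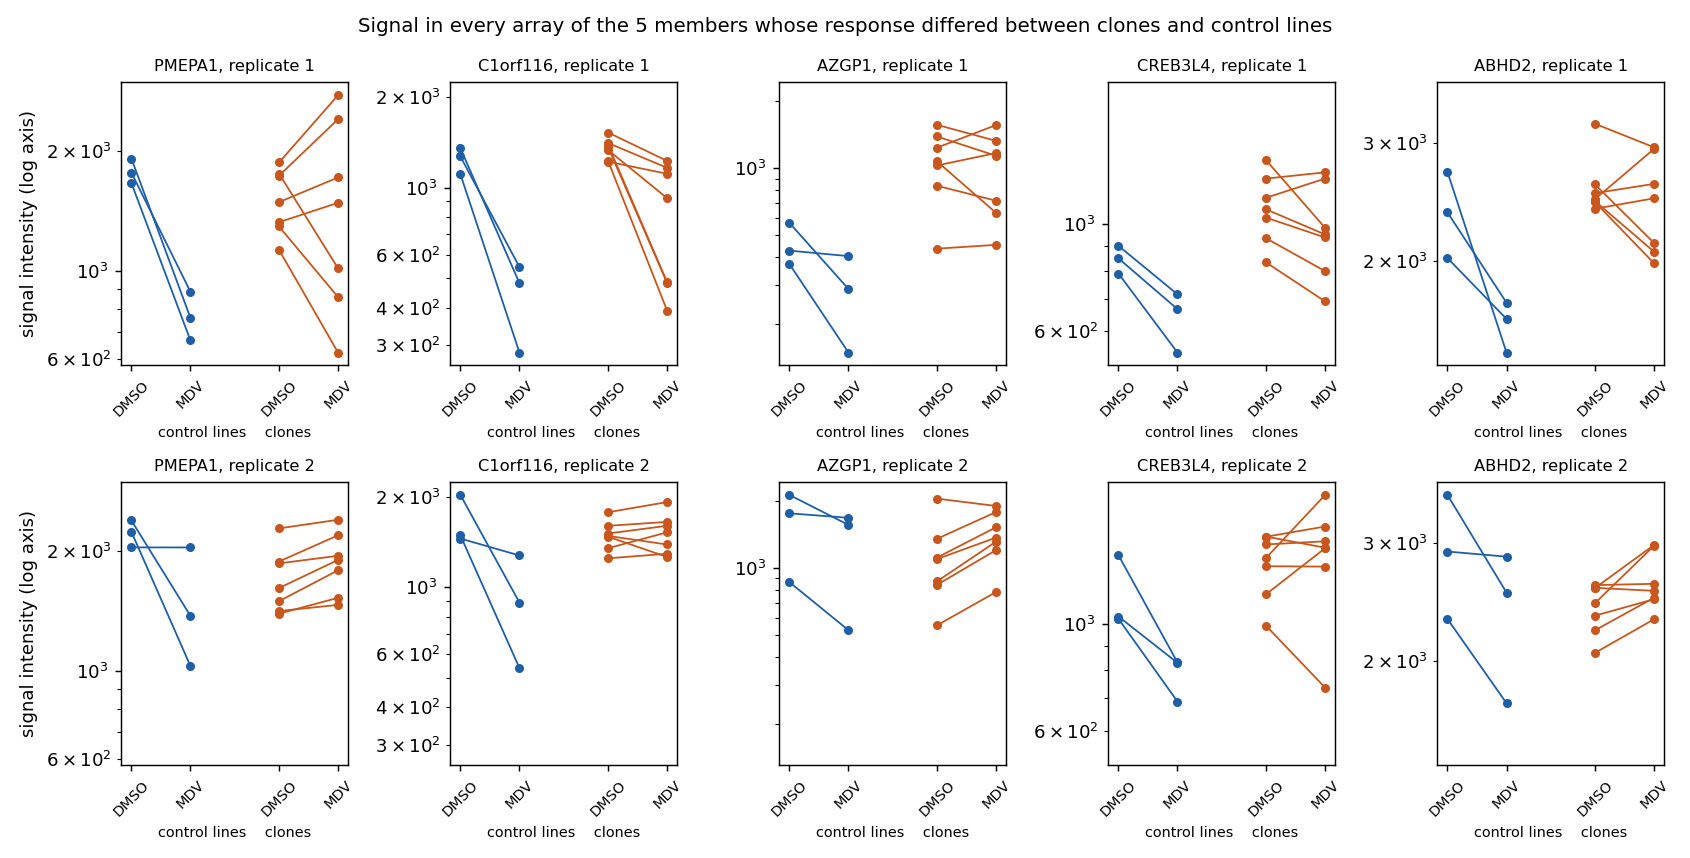
Signal intensity (y axis, log scale) of PMEPA1, C1orf116, AZGP1, CREB3L4 and ABHD2 on every array, with DMSO and MDV3100 of 1 culture joined by a line, control lines at the left and clones at the right of each panel, replicate 1 above and replicate 2 below. Lines of the control cultures slope down, with exceptions that are nearly flat. These are control 2 of replicate 2 for PMEPA1, AZGP1 and ABHD2, and control 3 of replicate 1 for AZGP1. Clone lines of replicate 1 all slope down for C1orf116 and slope both ways for the other genes. In replicate 2 the clone lines are mostly flat or rising.

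Among the signalling genes, 6 of 8 fell with a call in control lines: PMEPA1, HOMER2, RHOU, CAMKK2, CDC14B and LRIG1. PMEPA1 encodes a membrane protein that restrains TGF-beta signalling and binds the ubiquitin ligase NEDD4. Its control signals in DMSO were 1917.5, 1664 and 1767.9 in replicate 1 and 2235.2, 2042.2 and 2387.2 in replicate 2, and with MDV3100 761.5, 668 and 885.6, then 1026.7, 2041.8 and 1373.1. It was lower with the drug in every control culture but control 2 of replicate 2, which did not move. Clone signals had a lowest, median and highest value of 1129.5, 1489.3 and 1873.8 in DMSO and of 622.6, 1483.3 and 2767.8 with the drug in replicate 1. In replicate 2 they were 1390.6, 1613.3 and 2280.2 in DMSO and 1463.6, 1899.4 and 2396.9 with the drug. Clones 9, 10 and 14 fell by 0.84, 0.58 and 0.78 in replicate 1, and the other 4 clones rose by 0.16 to 0.56; in replicate 2 all 7 rose, by 0.05 to 0.26. The mean response was -0.92 ± 0.14 in control lines (adjusted p = 0.00173) and 0.01 ± 0.09 in clones (adjusted p = 0.954). The difference of 0.93 ± 0.17 (95% confidence interval 0.57 to 1.29, adjusted p = 0.0308) was largest among the 30 members by the probe sets used. Both other probe sets of PMEPA1 gave similar values, 0.89 and 0.93, while a dimmer probe set of MAF gave 1.12. Within the replicate sets the difference of PMEPA1 was 1.08 and 0.78 (adjusted p = 0.201 and 0.149).

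PMEPA1 also holds the sequence most often matched among the members' promoters, so its windows are shown. The windows are from RefSeq on GRCh38.p14 and run from 250 bases before to 50 after a gene start, 300 bases in all. The androgen receptor's 6-base element was searched as AGAACA on both strands, and a match is a description only. PMEPA1 has it in windows of 2 of its starts, on the minus strand at chr20:57711423-57711722, beginning 22 bases after the start, and at chr20:57710528-57710827, beginning 229 bases before the start. The capitals mark it below.
PMEPA1, start in chr20:57711423-57711722: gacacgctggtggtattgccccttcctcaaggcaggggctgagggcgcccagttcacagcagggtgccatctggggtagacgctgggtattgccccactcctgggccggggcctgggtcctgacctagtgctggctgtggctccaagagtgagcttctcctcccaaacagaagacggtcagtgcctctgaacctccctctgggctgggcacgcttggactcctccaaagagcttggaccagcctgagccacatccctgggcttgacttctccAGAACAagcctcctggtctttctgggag
PMEPA1, start in chr20:57710528-57710827: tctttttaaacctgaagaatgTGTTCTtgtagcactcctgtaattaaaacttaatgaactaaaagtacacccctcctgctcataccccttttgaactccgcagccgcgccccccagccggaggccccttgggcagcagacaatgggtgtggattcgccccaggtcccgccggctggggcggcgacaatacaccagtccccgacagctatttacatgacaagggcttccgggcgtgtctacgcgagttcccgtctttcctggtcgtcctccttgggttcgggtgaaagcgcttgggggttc

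Other members rarely held that element. It was in 4 of 45 windows (8.89%) of the 25 members that had one, which belong to PMEPA1, SLC38A4 and MICAL1, against 14.8% of all 35116 windows of the same length. The palindrome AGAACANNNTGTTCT, which holds the element on both sides and was the same on both strands, was in 0 of the 45 windows and in 0.00285% of all. The forkhead letters TGTTTAC, searched on both strands and bound by FOXA1, a factor that opens chromatin for the receptor, were in 0 of 45 and in 3.42% of all windows.

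HOMER2, a scaffold gene of the postsynaptic Homer family, had control signals of 433.9, 389.2 and 351.3 in DMSO and 226.2, 267.8 and 133.1 with the drug in replicate 1. In replicate 2 they were 534.7, 497.8 and 385, then 168.8, 395.5 and 281.2. All 6 pairs fell, with a mean of -0.84 ± 0.13 (adjusted p = 0.00159), against -0.18 ± 0.08 in clones (adjusted p = 0.334). RHOU, a small GTPase gene, fell in all 6 control pairs, by 0.11 to 1.39, with a mean of -0.66 ± 0.15 (adjusted p = 0.0127). In clones its median signal was 921.9 in DMSO and 548.4 with the drug in replicate 1, but 1190.6 and 1249.2 in replicate 2, so that the clones moved down in one set and up in the other. CAMKK2, a calcium-dependent kinase that activates AMPK and is a known receptor target, had control responses of -0.46, -0.90 and -0.47 in replicate 1 and -0.55, -0.05 and -0.37 in replicate 2. Its mean of -0.47 ± 0.08 (adjusted p = 0.00424) compared with -0.07 ± 0.05 in clones (adjusted p = 0.541). CDC14B, a dual-specificity phosphatase gene, fell by 0.34 ± 0.09 in control lines (adjusted p = 0.0345), and LRIG1, which holds back EGF receptor signalling, fell by 0.30 ± 0.07 (adjusted p = 0.0153). The 6 control cultures of LRIG1 all fell, by 0.05 to 0.51, and those of CDC14B ranged from -0.75 to 0.06, with control 3 of replicate 1 as the 1 that did not fall. For CDC14B 2 of its 4 other probe sets gave a control response of the opposite sign. The clones' mean responses were 0.18 ± 0.06 for CDC14B (adjusted p = 0.182) and -0.03 ± 0.04 for LRIG1 (adjusted p = 0.759).

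BMPR1B, a bone morphogenetic protein receptor, was uneven. In DMSO its control signals were 122, 603.2 and 68.8 in replicate 1 and 104.3, 129.9 and 26.8 in replicate 2, and the clones ranged from 14.1 to 175.1 and from 13.4 to 796.4. Clones 14 and 24 of replicate 2 stood at -1.42 and -1.44, while clones 9 and 15 rose by 0.96 and 0.97. The mean control response of -0.52 ± 0.22 had no call (adjusted p = 0.144). GUCY1A1, a subunit of the nitric oxide receptor guanylate cyclase, also had no call, at -0.12 ± 0.10 in control lines (adjusted p = 0.492) and -0.02 ± 0.06 in clones (adjusted p = 0.884). It rose by 0.33 and 0.44 in control 2 and control 3 of replicate 2 and fell in the other 4 control cultures.

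**Figure D3:**
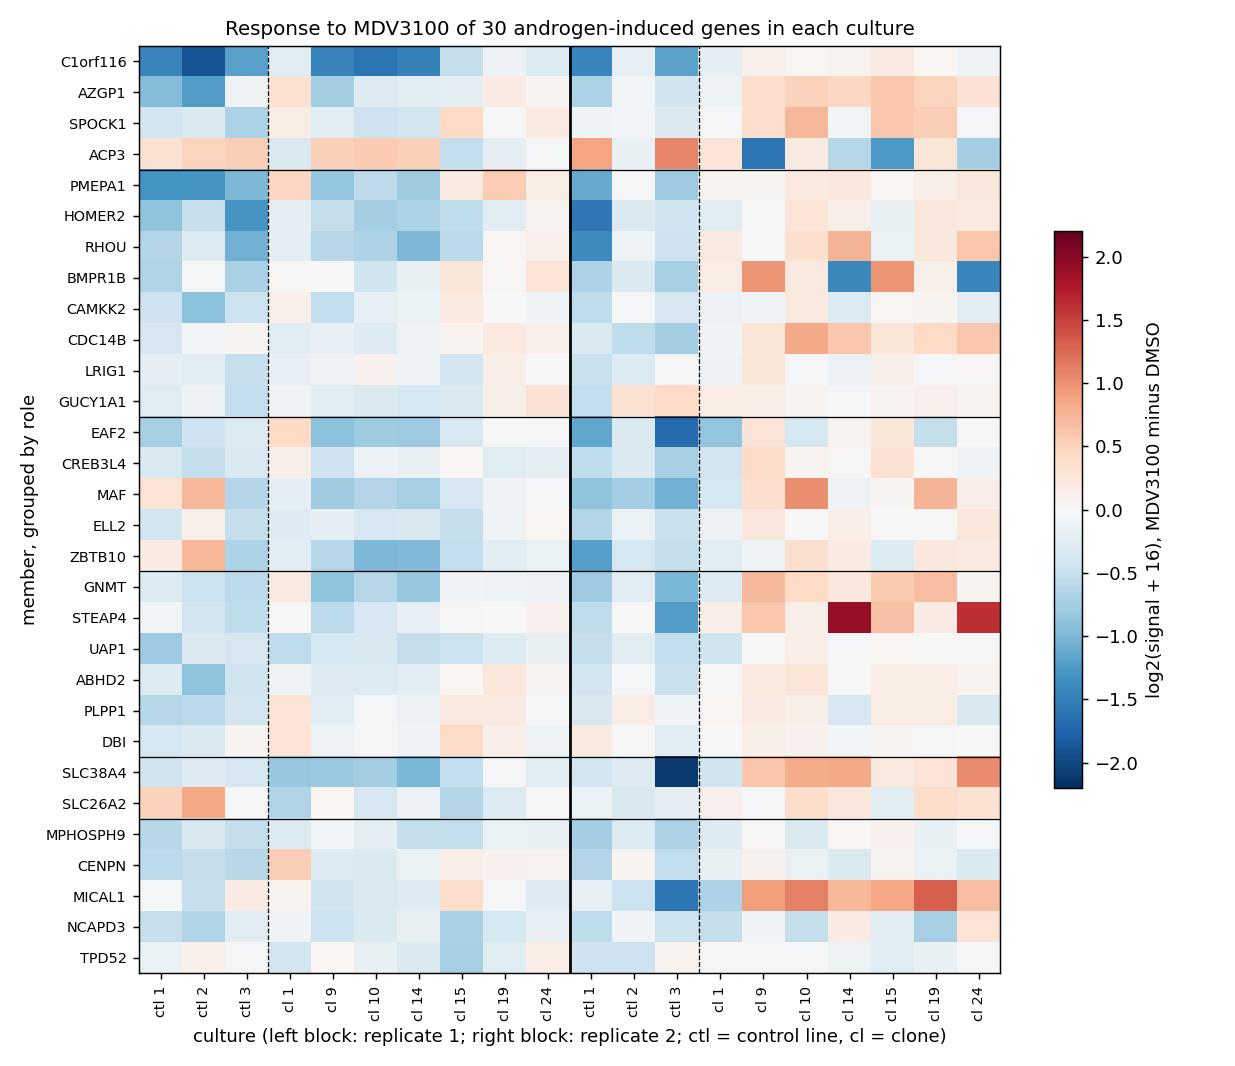
Response to MDV3100 of each of the 30 members (rows, grouped by role) in each of the 20 cultures (columns, replicate 1 at the left and replicate 2 at the right, control lines before clones), as log2(signal + 16) in MDV3100 minus DMSO; blue is lower and red higher with the drug. Control columns are mostly blue in both blocks; clones 9, 10 and 14 are mostly blue in replicate 1 and not in replicate 2.

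Of the transcription genes, 3 of 5 fell with a call in control lines. CREB3L4 encodes a membrane-bound transcription factor of the CREB family that is made in prostate, and its control signals in DMSO were 901.1, 789.2 and 848.5 in replicate 1 and 1023.7, 1035.1 and 1387.4 in replicate 2. With the drug they were 714.5, 541 and 665.8, then 689.5, 829.5 and 831. All 6 control arrays under the drug lay below their partners. Clone medians were 1072.5 and 951 in replicate 1 and 1369.5 and 1437.8 in replicate 2, for DMSO and drug. The mean responses of -0.47 ± 0.07 in control lines (adjusted p = 0.00183) and -0.05 ± 0.05 in clones (adjusted p = 0.626) differed by 0.41 ± 0.09 (adjusted p = 0.0466). EAF2 encodes a partner of the elongation factor ELL, and it fell in all 6 control pairs, from 566.6 to 164 in control 3 of replicate 2 at the most. Its mean was -0.77 ± 0.12 in control lines (adjusted p = 0.00183) and -0.25 ± 0.08 in clones (adjusted p = 0.15). The elongation factor gene ELL2 fell by 0.35 ± 0.10 in control lines (adjusted p = 0.0447), with 5 of 6 pairs down, against -0.09 ± 0.07 in clones (adjusted p = 0.548).

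MAF and ZBTB10 had no call by the probe sets used, and control 1 and control 2 differed in sign between the replicate sets. MAF, a basic leucine zipper factor gene, rose by 0.29 and 0.73 in control 1 and control 2 of replicate 1 and fell by 0.89 and 0.74 in the same labels of replicate 2. ZBTB10, a zinc finger repressor gene, rose by 0.19 and 0.73 and fell by 1.22 and 0.38 in those cultures. Control 3 fell in both sets, with responses of -0.65 and -1.05 for MAF and of -0.70 and -0.53 for ZBTB10. In clones of replicate 1 all 7 responses of ZBTB10 were negative, from -0.99 to -0.14, and in replicate 2 4 of 7 were positive, with a mean of 0.04. The difference of its responses was 0.07 (95% confidence interval -0.27 to 0.41). Dimmer probe sets of ZBTB10 had mean control responses from -0.70 to -0.09 and differences from -0.04 to 0.23. Those of MAF had mean control responses of -0.39 and -0.98 and differences of 0.56 and 1.12.

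Among the metabolic genes, GNMT, UAP1 and ABHD2 fell with a call, 3 of the 6 measured. ABHD2 encodes a lipase that responds to steroid hormones. Its control signals in DMSO were 2020.2, 2716.5 and 2363.4 in replicate 1 and 2308.2, 2910.8 and 3536.1 in replicate 2, and with MDV3100 1638.4, 1459.5 and 1732.7, then 1728.2, 2860.1 and 2528. The drug value was lower in all 6, though barely so in control 2 of replicate 2. In clones the medians for DMSO and drug were 2473.9 and 2480.8 in replicate 1 and 2438.4 and 2543 in replicate 2. The mean responses of -0.43 ± 0.07 (adjusted p = 0.00308) and 0.02 ± 0.05 (adjusted p = 0.864) differed by 0.45 ± 0.09 (adjusted p = 0.0341), and all 5 other probe sets gave a positive difference, from 0.23 to 0.61.

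UAP1 makes the sugar nucleotide UDP-N-acetylglucosamine and was among the members that fell in clones too. Its control signals of 2396.7, 2173.4 and 2319.5 in DMSO of replicate 1 became 1377.4, 1735.7 and 1785 with the drug, and those of replicate 2 went from 2523.9, 1942.7 and 2263.1 to 1755.8, 1649.5 and 1543.1. The mean was -0.47 ± 0.09 in control lines (adjusted p = 0.00586). In clones of replicate 1 all 7 cultures were lower with the drug, by 0.17 to 0.55, and the mean of -0.39 ± 0.08 was called there (adjusted p = 0.0211). In replicate 2 the clones stood between -0.44 and 0.14, and 6 of the 7 lay within -0.03 and 0.14. GNMT, a methyltransferase that spends S-adenosylmethionine on glycine, fell in all 6 control pairs, by 0.23 to 1.01, with a mean of -0.57 ± 0.11 (adjusted p = 0.00604). In clones it fell in 6 of 7 cultures of replicate 1 and rose in 6 of 7 of replicate 2.

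STEAP4, PLPP1 and DBI had no call in control lines. STEAP4, which reduces iron and copper ions, was near background in replicate 1, where all arrays had signals of 0.3 to 11.2. In replicate 2 the clones ranged from 1.7 to 40.7 in DMSO and from 3.7 to 128.5 with the drug, and all 7 rose. As STEAP4 had passed the filter only through these clones, where it was high, their rise is no independent result. PLPP1, a lipid phosphate phosphatase gene, fell by 0.32 ± 0.10 in control lines (adjusted p = 0.0515), and it did so with a call in replicate 1 alone, at -0.54 ± 0.12 (adjusted p = 0.0169). DBI, the acyl-CoA binding protein gene, was measured by a probe set that can cross-react with other sequences, and its control response was -0.11 ± 0.07 (adjusted p = 0.343). The DBI responses of the control cultures ranged from -0.38 to 0.22, with 3 of 6 below 0.

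Both measured transport genes were uneven. SLC38A4, an amino acid transporter gene, had control signals of 7.8, 3.6 and 4.7 in DMSO of replicate 1 and 12.6, 26.4 and 65 in replicate 2. With the drug they were 1.5, 0.1 and 0.1, then 5.5, 18.8 and 2.8. All 6 fell, with a mean of -0.65 ± 0.17 (adjusted p = 0.0323) in which control 3 of replicate 2 had the largest response, -2.11. In the clones all 7 cultures of replicate 1 fell, by 0.04 to 1.01, with a call in that set, at -0.61 ± 0.10 (adjusted p = 0.0109), and 6 of 7 rose in replicate 2, by 0.20 to 1.03. The clone signals of replicate 1 were near background, at 5 to 41.4 in DMSO and 0.1 to 16.3 with the drug. As SLC38A4 had passed the filter only through the clones of replicate 2, where it was high, these values are no independent result. One of its promoter windows, on the minus strand at chr12:46825948-46826247, has the receptor element beginning 95 bases before the start, marked in capitals.
SLC38A4, start in chr12:46825948-46826247: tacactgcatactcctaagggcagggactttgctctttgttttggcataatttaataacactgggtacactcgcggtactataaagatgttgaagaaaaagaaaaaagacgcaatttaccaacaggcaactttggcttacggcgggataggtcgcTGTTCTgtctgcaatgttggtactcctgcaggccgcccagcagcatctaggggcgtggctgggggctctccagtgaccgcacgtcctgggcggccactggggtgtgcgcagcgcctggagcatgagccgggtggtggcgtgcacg
SLC26A2, a sulfate transporter gene, rose in control 1 and control 2 of replicate 1 by 0.51 and 0.84 and fell in all 3 control cultures of replicate 2, by 0.14 to 0.35. Its clones leaned the other way, with 5 of 7 negative in replicate 1 and 5 of 7 positive in replicate 2.

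Of the chromosome, cytoskeleton and trafficking genes, CENPN, MPHOSPH9 and NCAPD3 fell with a call in control lines, 3 of the 5 measured. CENPN, a centromere protein gene, went from 1218.3, 871.8 and 1315.5 to 815, 599.6 and 855.8 in control lines of replicate 1, and from 1706.7, 1447 and 1341.3 to 1084.7, 1501.4 and 916.2 in replicate 2. Only control 2 of replicate 2 did not fall, and the mean was -0.47 ± 0.10 (adjusted p = 0.0078) against -0.06 ± 0.06 in clones (adjusted p = 0.685). MPHOSPH9, a centriole protein gene, fell in all 6 control pairs, by 0.30 to 0.75, with a mean of -0.53 ± 0.08 (adjusted p = 0.00157), and its clone mean was -0.18 ± 0.05 (adjusted p = 0.113). NCAPD3, a condensin II subunit gene, had nearly the same direction in both groups. It fell in all 6 control cultures, by 0.07 to 0.65, and in all 7 clones of replicate 1, by 0.07 to 0.71, and was lower in 5 of 7 clones of replicate 2. The means were -0.42 ± 0.11 (adjusted p = 0.0284) and -0.28 ± 0.07 (adjusted p = 0.0846), and the difference of 0.14 had a 95% confidence interval from -0.14 to 0.42.

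Some of these genes belong to cell division, and proliferation transcripts also fell in control lines. Of 20 proliferation genes 12 fell with a call in control lines (5.06% of all genes) and 1 in clones (0.464% of all genes). Median responses were -0.40 and -0.19. All 20 had negative mean responses in both groups. By limma 18 and 17 had an unadjusted p under 0.05, against 3110 and 1818 of all 11853 genes. The median response of the 20 ranged from -0.57 to 0.04 over the control cultures and from -0.41 to 0.05 over the clone cultures. Its part in the members' fall was not tested. The 3′ to 5′ signal ratio of the actin probe sets, a sign of RNA quality, ranged from 3.18 to 4.77 in DMSO and from 3.68 to 6.59 with the drug in replicate 1, and from 2.69 to 3.70 and from 2.59 to 3.95 in replicate 2. It was highest for control 2 of replicate 1 with the drug, at 6.59 against 3.18 in DMSO, and its part in the results was not tested either. The remaining members of this role were MICAL1 and TPD52. MICAL1, an actin-oxidising enzyme gene, had a control mean of -0.43 ± 0.15 (adjusted p = 0.0854), of which control 3 of replicate 2 gave the largest share, -1.59. In replicate 2 it rose in 6 of 7 clones, by 0.68 to 1.32, and stood at -0.69 in clone 1. TPD52, a vesicle trafficking gene, was bright and nearly flat by the probe set used. Its means were -0.16 ± 0.10 in control lines (adjusted p = 0.342) and -0.16 ± 0.06 in clones (adjusted p = 0.24), and their difference lay between -0.26 and 0.24 (95% confidence interval). A dimmer probe set of TPD52 gave -0.51 in control lines, with a difference of 0.37. The others gave -0.06 to -0.05, with differences of -0.28 to -0.13.

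The single cultures showed how far the members moved together. The median response over the 30 members was -0.41, -0.33 and -0.49 in control 1, control 2 and control 3 of replicate 1 and -0.56, -0.21 and -0.50 in replicate 2. Between 24 and 28 members were lower with the drug in each of these 6 cultures. In replicate 1 the clones fell into a wide range, from -0.41 in clone 9, -0.34 in clone 10, -0.33 in clone 15 and -0.30 in clone 14 to -0.11 in clone 1, -0.02 in clone 19 and -0.01 in clone 24. Clones 9 and 10 lay within the range of the control lines of that set, and clones 15 and 14 just above it. In replicate 2 clone 1 had -0.13 and the other 6 clones lay between 0.06 and 0.21, above all control cultures. Each of those 6 clones was closest to another of them (r = 0.884 to 0.962, in deviations from gene means). Their highest r with any culture of replicate 1 was 0.066. How far these 6 responses are independent of each other was not tested. The median over all genes stayed between -0.04 and 0.03 in every culture.

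**Figure D4:**
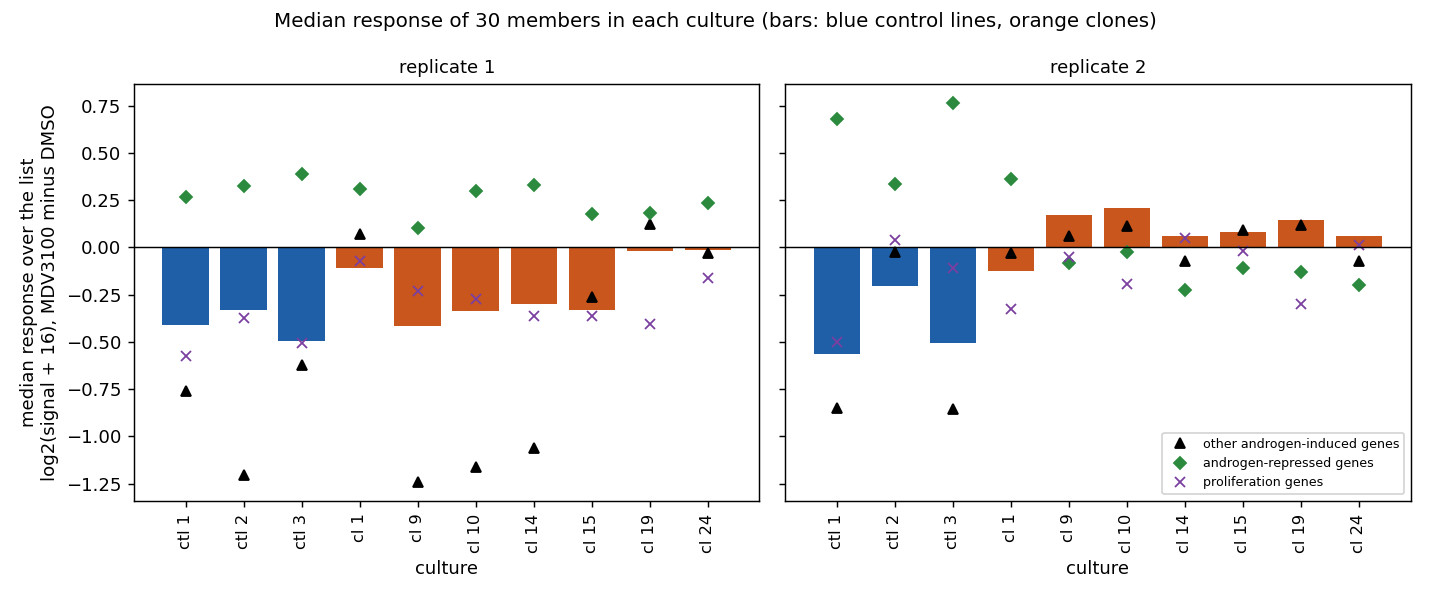
Median response over the 30 members (bars, y axis, log2(signal + 16), MDV3100 minus DMSO) in each culture (x axis), blue for control lines and orange for clones, replicate 1 at the left and replicate 2 at the right. Triangles, diamonds and crosses give the medians of 11 other androgen-induced, 8 androgen-repressed and 20 proliferation genes; the bars of 6 clones in replicate 2 are above 0 and all control bars are below 0.

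Within the sets fewer members separated the clones from the control lines. In replicate 1 the responses of all clones lay above those of all control lines for PMEPA1, CENPN and PLPP1 (1.97% of all genes). In replicate 2 they did so for STEAP4, PMEPA1, ELL2, ZBTB10, HOMER2, ABHD2, MAF, SPOCK1 and CDC14B (1.55% of all genes). PMEPA1 was the member common to both. STEAP4 had passed the filter only through those replicate 2 clones, where it was high, so its place there is no independent result.

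The response of the clones in replicate 2 minus that in replicate 1 was positive for 25 of 30 members, with a median of 0.30 against -0.01 over all genes. By limma 15 members had an unadjusted p under 0.05, as had 1573 of all 11853 genes. With a call there were 0 members, beside 0.0422% of all genes. SLC38A4 came nearest, at 1.09 ± 0.18 (adjusted p = 0.0506). Without clone 1, SLC38A4, MICAL1, GNMT and AZGP1 were called, at 1.21, 1.09, 0.89 and 0.67, beside 0.607% of all genes. SLC38A4 had passed the filter only through the clones of replicate 2, where it was high, so its values here are no independent result.

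Before the drug no member's level differed with a call between clones and control lines. In DMSO the median difference of clones minus control lines was 0.0008, 15 members were higher and 15 lower in clones, and by limma 0 were called, with 4 at an unadjusted p under 0.05, as were 2885 of the 11853 genes (0.118% of all genes called). Within the sets PLPP1 was higher in clones in replicate 1, at 0.42 ± 0.11 (adjusted p = 0.0485, 3.66% of all genes higher). GUCY1A1 was higher in replicate 2, at 0.98 ± 0.21 (adjusted p = 0.0279, 3.93% of all genes higher). The GUCY1A1 signals of replicate 2 did not overlap, at 408.4 to 889.8 in control lines and 1000.5 to 1515.4 in clones, whereas in replicate 1 the control lines had 1035.2 to 1171.6 and the clones 207 to 1118.2. Without control 2, control 3 and clone 1 of replicate 2, AZGP1, MICAL1, EAF2, RHOU and CREB3L4 were higher in clones, by 1.02, 0.78, 0.76, 0.73 and 0.47 (3.02% of all genes higher).

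With the drug present the levels parted. Clones minus control lines had a median of 0.41, and 10 members were higher in clones with a call, against 4.7% of all genes, and 0 lower. These were AZGP1 at 1.03 ± 0.24, GNMT at 0.96 ± 0.13, RHOU at 0.94 ± 0.21, C1orf116 at 0.81 ± 0.16, SLC38A4 at 0.78 ± 0.22, MICAL1 at 0.77 ± 0.16, CREB3L4 at 0.69 ± 0.12, SPOCK1 at 0.56 ± 0.12, CENPN at 0.51 ± 0.10 and ABHD2 at 0.38 ± 0.09. The lowest adjusted p was that of GNMT, 0.00772, and the highest that of SLC38A4, 0.0451. As SLC38A4 had passed the filter only through the clones of replicate 2, where it was high, its call is no independent result. In replicate 1 alone PLPP1, AZGP1, SPOCK1, ABHD2 and DBI were higher (5.52% of all genes) and ACP3 was lower in clones, at -2.02 ± 0.50 (adjusted p = 0.0324). In replicate 2 alone 10 members were higher (7.22% of all genes), with GNMT at 1.25 and GUCY1A1 at 0.99 the furthest, and no member was called in both sets. Without the 3 replicate 2 cultures 15 members were higher (8.73% of all genes) and ACP3 was lower. Without control 1 no member was called, with 11 at an unadjusted p under 0.05, and without control 3 the count was 5. The level and response comparisons use the same arrays and are not independent of each other.

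**Figure D5:**
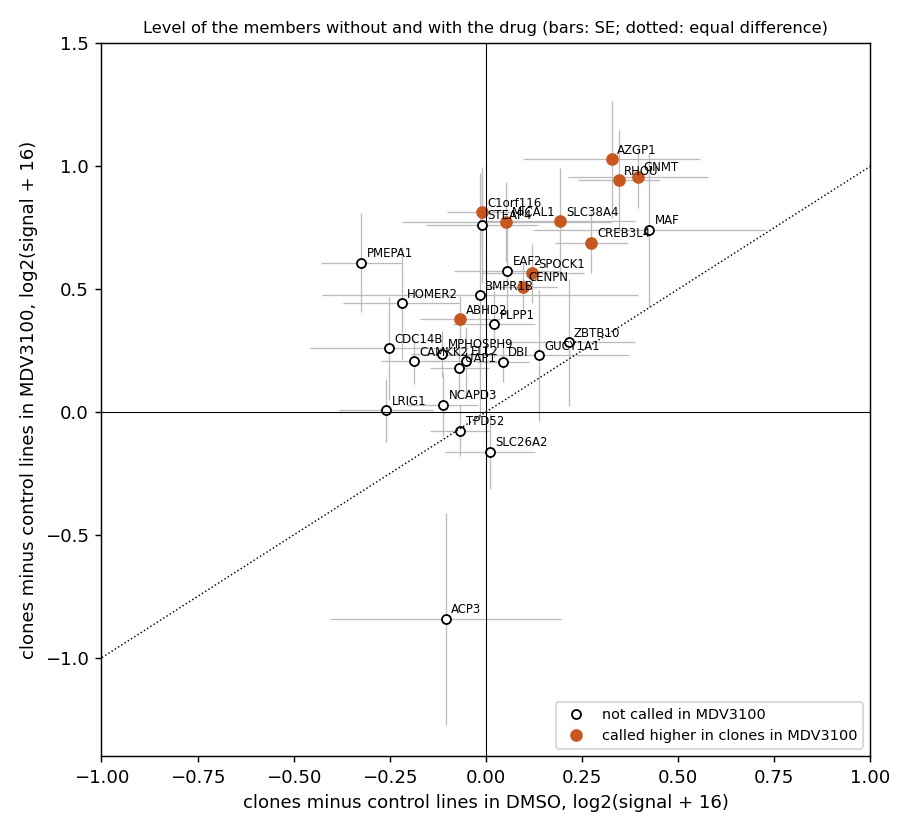
Clones minus control lines for each of the 30 members, in DMSO (x axis) and in MDV3100 (y axis), both on the log2(signal + 16) scale, with bars for the SE and a dotted line where both differences are equal; filled circles are the 10 members called higher in clones with the drug. Most points lie above the dotted line, while on the x axis they spread to both sides of 0.

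Other genes of the pathway were read from lists chosen with earlier results of these data known, so their counts are no independent result. The lists held 11 other androgen-induced genes, among them KLK2, KLK3, TMPRSS2 and FKBP5. Of these 6 fell with a call in control lines (5.06% of all genes) and 1 in clones (0.464% of all genes). Median responses were -0.65 and -0.22, and by limma 10 and 5 had an unadjusted p under 0.05, against 3110 and 1818 of all 11853 genes. Of the 8 androgen-repressed genes measured, 5 rose with a call in control lines (5.05% of all genes) and 0 in clones (4 at an unadjusted p under 0.05 by limma), with medians of 0.46 and 0.06. The difference of responses was called for 2 of the 11 induced genes, in the positive direction (0.304% of all genes). It was called for 2 of the 8 repressed genes, in the negative direction (0.413% of all genes). The 30 members lie on 14 chromosomes, with at most 4 on any one. Another probe set was available for 19 of them, 50 probe sets in all, of which 45 had the same sign of the control response and 43 the same sign of the difference as the probe set used.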

How the data were processed

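Total RNA of 40 samples of LNCaP lines was amplified, labelled with biotin and hybridised to Affymetrix arrays, per the labels' protocols. The authors deposited 1 linear intensity for each probe set. Per the submitters' processing notes the tool was MAS5, in a version not given in the sources used here. The mean of each array after trimming 2% at each end was 150, so the deposited intensities had been scaled and were not normalized again. Each of the columns was matched to its sample by identifier, and 0 were left unmapped. Precision is limited by how many arrays there are.

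Intensities were converted to log2(signal + 16). Probe sets with a mean at or above the median probe set mean (log2 4.81) were kept, 27338 of 54675. Of all probe sets 41097 carried 1 gene in the platform annotation, 1801 several and 11777 none, and only the first were named. The brightest probe set stood for a gene. Tests used limma 3.58.1 in R 4.3.3 with Benjamini-Hochberg adjustment over 11853 genes, and were tested on simulated data. Responses of 3 control lines and 7 clones and their difference came from 1 fit of line means, and levels in DMSO and in MDV3100 from 1 fit each. Lines have 1 name and 2 replicate numbers, and the labels do not say whether these were separate cultures, so that the p-values describe the spread among these samples alone, and part of it may be technical.

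DMSO and MDV3100 arrays of 1 line and 1 replicate number deviated together from the group means (r = 0.478 to 0.874 over the 20 pairs, across genes), so the numbers pair the treatments, and a fit with this replicate block is given where it changes a call. Values in each culture are described for members called in control lines or in the difference, those with the 4 most negative or most positive control responses and the 4 most negative clone responses; what is said of the single cultures of SPOCK1, STEAP4, BMPR1B, MAF and MICAL1 falls outside that rule and was chosen after their values were seen. The members and lists were chosen with earlier results of these data known, and so were the 3 cultures left out in 1 alternative. Alternatives changed the pseudocount, filter, scaling, probe set rule, variance trend, replicate set and lines.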

Additional observations from a re-analysis of the deposited data

Results flagged for a closer look

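The response to MDV3100 differed between clones and control lines, with a call in the fit over all genes by limma, for 5 members. The clone response lay above the control response by 0.93 for PMEPA1 (adjusted p = 0.0308), 0.82 for C1orf116 (adjusted p = 0.0379), 0.70 for AZGP1 (adjusted p = 0.0284), 0.45 for ABHD2 (adjusted p = 0.0341) and 0.41 for CREB3L4 (adjusted p = 0.0466). The sign was the same within each replicate set and in the fits that left out 1 line, for all 5.

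Clone 1 of replicate 2 stood apart from the other 6 clones of that set for 3 members, at -0.11 for AZGP1, -0.69 for MICAL1 and -0.44 for UAP1, where its response was the lowest. These are 3 of 60 sets of 7 clone responses tested, and chance gives about 1 in 20. The same culture resembled clone 19 of replicate 1 more than the arrays of its own label in replicate 1 (r = 0.744 and 0.10), and the part of this in the 3 values was not tested.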

How the results depend on the processing

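All 18 members called in control lines, all 5 called in the difference and all 10 called in MDV3100 kept their direction under every alternative in which they were tested, and the counts of calls moved. In control lines 18 calls became 11 with replicate 1 alone, 0 with replicate 2 alone (21 members at an unadjusted p under 0.05 by limma) and 0 with arrays as replicates, line as block and no replicate block (9 unadjusted). Leaving out 1 line gave 7 to 21, the lowest without control 1. With the replicate block 17 were called: PLPP1 was gained, SLC38A4 and CDC14B were lost. The clone response went from 0 calls to 1 with a pseudocount of 64, 1 with the stricter filter, 3 with replicate 1 alone and 2 with the replicate block, and to 0 to 2 when a line was left out (2 without clone 24). Its median over the members was 0.054 in replicate 2 alone. The 5 calls in the difference became 0 with a pseudocount of 1 (19 unadjusted), with no filter (22), in replicate 1 alone (11), in replicate 2 alone (22) and with no replicate block (5), 3 with an intensity trend, 3 without the 3 replicate 2 cultures and 1 with the replicate block, and 0 to 6 when a line was left out (0 without control 1 or clone 19). The median difference was 0.21 in replicate 1 alone. In DMSO 0 calls became 1 in each replicate set, 5 without the 3 cultures and 0 to 2 by line (2 without clone 1). In MDV3100 10 became 6 in replicate 1 alone and 16 without the 3 cultures, with 0 to 11 by line (0 without control 1, 5 without control 3). Between the replicate sets of clones 0 became 4 without clone 1, and was 0 to 4 by line. The cause of these changes was not tested. Quantile normalization moved the median of all genes by under 0.01 in every comparison. Signals near background, as for STEAP4, SLC38A4 and SPOCK1, limit what can be read of those members.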
